A study of Mus musculus with 4 samples.

Results

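Follicular B cells, the recirculating naive B cells of the spleen, were picked out of droplet single-cell RNA sequencing data by the transcripts each cell carried. A barcode counted as a cell when it held at least 500 unique molecular identifiers (UMIs, each a counted transcript molecule), 250 genes or more, and no more than 10% of its UMIs from mitochondrial genes. A follicular B cell held at least 3 of the 6 B lineage transcripts Cd79a, Cd79b, Ms4a1, Ebf1, Pax5 and Bank1, and at least 1 UMI each of Fcer2a, the low-affinity IgE receptor CD23, and Ighd, the IgD heavy chain. It held fewer than 2 UMIs of Sox5, no UMI of Myof, Fcrl5, Cd3d, Cd3e or Cd3g, and under 0.5% of its UMIs from S100a8 and S100a9. Members were thus selected on their own UMI counts of these genes, which are a description here and carry no test. The rule took 5416 of 53945 cells, 54 in D3TA replicate 1, 1198 in D3TA replicate 2, 2661 in WT replicate 1 and 1503 in WT replicate 2.

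The D3TA mice were 2 C57BL/6J females, 12 and 16 months old, heterozygous for a constitutive knock-in made with CRISPR/Cas9 that puts alanine in place of threonine 283 of cyclin D3 in every cell of the body. The WT mice were 2 females matched for age and sex. The labels do not say which library came from the younger or the older mouse. By the study description, D3TA mice of this age are severely ill with a myeloproliferative neoplasm, an overproduction of myeloid cells. Red blood cells were lysed before the droplets were made. Since every cell of a D3TA mouse carries the allele, an effect of the allele within B cells and an effect of the diseased spleen around them cannot be told apart. With 2 libraries per group, an exact permutation test over libraries cannot go below p = 0.33.

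Follicular B cells enter the white pulp follicles along a CXCL13 gradient read by the receptor CXCR5, carry IgM and IgD, and leave the spleen again through S1P receptors. Between encounters with antigen they are quiescent. They depend on BAFF and on tonic signalling of the B cell receptor for survival, and can enter germinal centers when T cells help them. Marginal zone B cells, their neighbours at the rim of the follicle, carry more CD21 and CD1d and respond rapidly to blood-borne antigens. D-type cyclins bind CDK4 and CDK6, and these kinases inactivate RB and so release E2F factors at the entry into the cell cycle.

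The site that separates the groups lies in the last coding stretch of Ccnd3 (chromosome 17, 47505051 to 47599691, plus strand, GRCm38). The reference codons 272 to 292, at chr17:47598711-47598773 on the plus strand in GENCODE M21 on GRCm38, are shown with codon 283, the threonine codon replaced in D3TA mice, in capitals.
Ccnd3 codons 272 to 292: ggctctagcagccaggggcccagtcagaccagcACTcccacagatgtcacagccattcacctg
Counts per gene do not show which allele a transcript came from, so Ccnd3 levels say nothing about whether a library is labelled rightly.

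The libraries held 143811696 and 114430052 UMIs in D3TA spleens and 83507825 and 81416981 in WT spleens. Follicular B cells contributed 414412 and 8068717 of these in D3TA libraries and 13216131 and 10380756 in WT libraries, with a median of 7023.5 and 6152 UMIs per cell in D3TA and 4954 and 6615 in WT libraries. WT replicate 1 held many shallow cells, with a median of 1394 UMIs over all its cells, against 7698 to 8111 in the other libraries. D3TA replicate 1 stood apart in its B cells: 84.0% of them lay in the gate with 2 or more Sox5 UMIs, against 20.8% in D3TA replicate 2 and 4.97% and 27.5% in WT libraries. The main results that rest on its 54 follicular cells are therefore given with and without it. A fit with 1 library left out sets 1 library of a group against 2 and assumes that it varies as they do. Its p-values speak for that 1 library and not for its genotype. Libraries shared 32 to 127 barcodes with each other, and follicular cells shared at most 3.

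The cells lay close to the gate's limits to different degrees. A single Fcer2a UMI carried 12 of 54 and 310 of 1198 follicular cells in D3TA libraries, and 1166 of 2661 and 381 of 1503 in WT libraries. Just outside, 47 and 312 D3TA cells and 3212 and 493 WT cells met every other condition with no Fcer2a UMI. The limit on S100a8 and S100a9 kept out 14 and 159 D3TA cells and 104 and 7 WT cells. These met the other conditions, but the Cd3 genes were not checked in this count. Cells with 1 Sox5 UMI made up 14.8% and 2.34% of the follicular cells in D3TA libraries and 5.41% and 3.59% in WT libraries.

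B cell genes that the rule did not use were present in the follicular cells. Cxcr5 was detected in 63.0% and 57.6% of D3TA and 45.1% and 58.5% of WT follicular cells, against 13.95% and 7.71% of D3TA and 9.33% and 16.5% of WT cells that carried fewer than 2 of the 6 B lineage transcripts (non-B cells). The median depths of the non-B cells were 6586.5 and 7464 UMIs in D3TA and 1651 and 7177.5 in WT libraries. Blnk, an adaptor of B cell receptor signalling, had a mean log2 ratio to the non-B level of 5.23 over the 4 libraries.

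Against the marginal zone gate (at least 1 UMI of Myof or Fcrl5 and of Cr2, and fewer than 2 of Sox5), the follicular cells had more of some transcripts of recirculating B cells and not of others. These contrasts share genes with the rule and are given as a description, with no test. Klf2, a transcription factor that keeps lymphocytes quiescent and recirculating, was at 347 and 341 CPM (UMIs of the gene scaled to a common total per library) in D3TA and 333 and 337 CPM in WT follicular cells, and at 196 and 123 CPM in D3TA and 127 and 103 CPM in WT marginal zone gate cells. S1pr1, the receptor by which lymphocytes leave tissues, was at 89.3 and 148 CPM in D3TA and 122 and 135 CPM in WT follicular cells, below the 114 and 226 CPM in D3TA and 192 and 189 CPM in WT marginal zone gate cells. Cxcr5 was at similar levels in both classes, at 147 and 159 CPM in D3TA and 161 and 150.1 CPM in WT follicular cells and at 170.1 and 166 CPM in D3TA and 158 and 154 CPM in WT marginal zone gate cells. Bach2, a repressor of plasma cell differentiation, had a mean log2 ratio of 1.26 over the 4 libraries and Cd55, a complement inhibitor, one of 1.54. On the other side, Dtx1, a Notch target of marginal zone cells, had a mean log2 ratio of -1.65. The sphingosine receptor S1pr3 was at 9.65 and 3.47 CPM in D3TA and 3.56 and 2.50 CPM in WT follicular cells, against 12.3 and 57.6 CPM in D3TA and 51.3 and 53.5 CPM in WT marginal zone gate cells. The 9.65 CPM of D3TA replicate 1 rest on 4 UMIs.

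**Figure D1:**
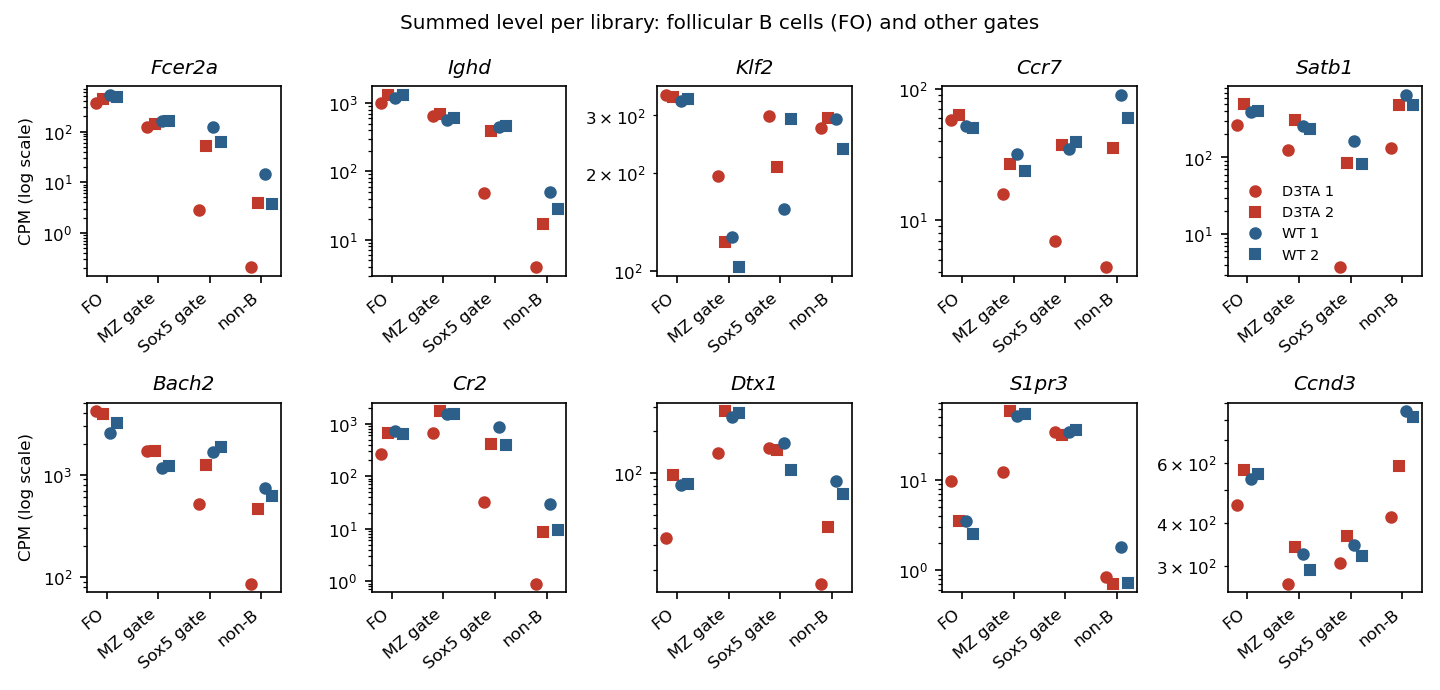
Summed level of 10 genes in CPM (log scale) in follicular B cells (FO), the marginal zone (MZ) gate, the Sox5 gate and non-B cells, with 1 point per library. Fcer2a and Ighd were used by the rule; Bach2 lies highest in follicular cells among the B cell gates in every library, while the Sox5 gate of D3TA replicate 1 lies far below the other libraries for Fcer2a, Satb1 and Cr2.

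Against the Sox5 gate, the follicular cells had more Satb1, a chromatin organizer of lymphocytes (mean log2 ratio 2.72), and more Vpreb3 (2.05). They had less Dnm3 (-4.06), Cdk14 (-3.55) and Cd80, a costimulatory ligand (-2.85). In D3TA replicate 1 the ratios of Satb1 and Vpreb3 were 4.96 and 4.06, each above that of the other libraries.

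Ccnd3 itself did not differ detectably between the genotypes in follicular cells. On the scale of CPM corrected with edgeR's TMM factors, used from here on for single genes of follicular cells (list sums and levels of other cell classes are plain CPM), it stood at 452 and 559 in D3TA and 547 and 571 in WT follicular cells. The groups overlapped, and the log2 fold change (D3TA over WT) was -0.13 ± 0.20 (SE, edgeR adjusted p = 0.928), near 0.01 without D3TA replicate 1. By plain CPM, follicular cells held more Ccnd3 than the marginal zone gate in each library, at 454 and 574 CPM against 267 and 342 CPM in D3TA libraries and at 540 and 556 CPM against 325 and 292 CPM in WT libraries.

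The share of follicular B cells among all kept cells was 0.432% and 10.9% in D3TA spleens, against 11.8% and 19.1% in WT spleens. Both D3TA values lay below both WT values, with a mean of 5.69% ± 7.43 in D3TA and 15.4% ± 5.18 in WT libraries (SD, n = 2 each; two-sided exact permutation p = 0.33, the smallest possible). The limit on S100a8 and S100a9 kept out 159 further cells in D3TA replicate 2 and 104 in WT replicate 1. Shares without that limit were not computed, so the order of these 2 libraries, at 10.9% and 11.8%, may depend on it. The share of follicular B cells among gated B cells was 2.95% and 30.1% in D3TA and 20.1% and 30.0% in WT libraries. Here D3TA replicate 2 lay level with the higher WT library and D3TA replicate 1 far below all (two-sided exact permutation p = 1). B cells as a whole made up 14.7% and 36.3% of D3TA and 58.7% and 63.7% of WT cells.

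Detection of Fcer2a and Ighd depends on depth, so each cell was also thinned at random to 1000 UMIs, leaving out 550 and 520 shallower cells in D3TA and 7416 and 257 in WT libraries. The rule was applied anew to the thinned cells, so the genes that keep cells out were also detected less. In WT replicate 2, for example, the Sox5 gate went from 27.5% to 7.90% of B cells. The thinned class is therefore not made of the same cells. The share among B cells was then 0.579% and 11.2% in D3TA and 11.1% and 11.1% in WT libraries, so that D3TA replicate 2 and both WT libraries lay together while D3TA replicate 1, with 11 cells, lay far below. The share among all cells was 0.0921% and 4.16% in D3TA and 6.98% and 7.34% in WT libraries, both D3TA values again below both WT values. The gap between the 2 WT libraries in the unthinned shares was thus smaller at equal depth. A smaller share of a class does not say whether its number of cells per spleen differed.

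**Figure D2:**
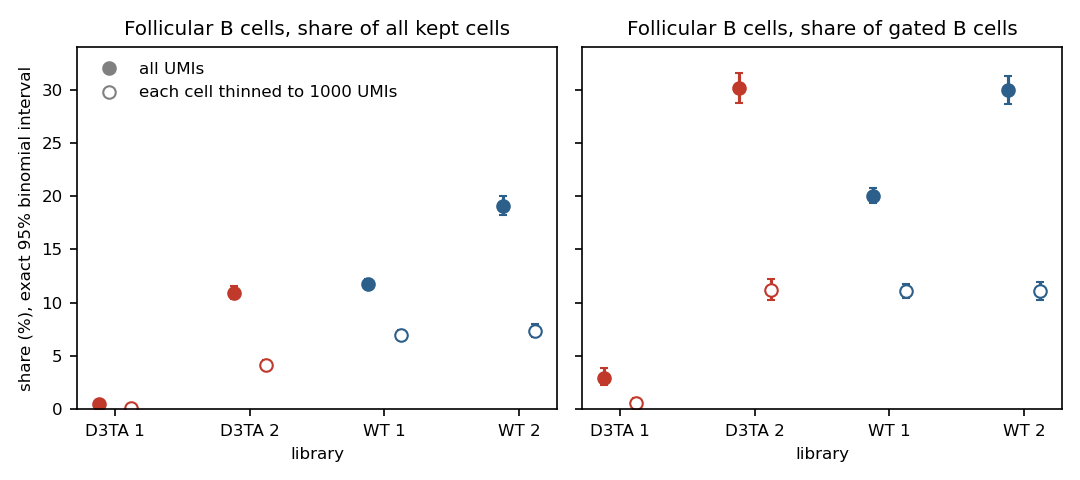
Share of follicular B cells (percent, with exact 95% binomial intervals that cover counting error only) in each library, among all kept cells (left) and among gated B cells (right), from all UMIs (filled) and with each cell thinned to 1000 UMIs (open). D3TA replicate 1 lies lowest in each panel, and D3TA replicate 2 lies at 11.2% of thinned B cells against 11.1% and 11.1% in WT.

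UMIs were then summed per library over the follicular cells and D3TA was compared with WT by edgeR's quasi-likelihood test with Benjamini-Hochberg adjustment over 12102 genes. In all, 15 genes passed an adjusted p of 0.05, or 0.124%, all higher in D3TA, and 0 passed as lower. DESeq2 called 37 (0.306%), of which 35 were higher (0.289%) and 2 lower (0.0165%). On simulated data this test missed more changed genes than it called, so a gene without a call is not shown to be level. At an unadjusted edgeR p under 0.05 there were 940 genes, of which 548 were lower. The D3TA and WT libraries did not overlap for 38% of the genes tested, 16.3% with D3TA higher and 21.7% with D3TA lower, and the median log2 fold change of all genes was -0.03.

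Of the 15 genes, 13 were far more abundant in the non-B cells of the same spleens than in follicular cells. They stood below 0.2 of the non-B level in the D3TA libraries, a limit chosen to mark genes whose UMIs could come from ambient RNA in the droplets (possible free RNA). They were the granule and neutrophil genes Ngp, Lcn2, Mpo, Camp, Chil3, Wfdc21, Prtn3, Elane, S100a8, S100a9, Ifitm6 and Anxa1, together with Fos. Ngp, neutrophilic granule protein, stood at 204 and 231 CPM in D3TA and 5.21 and 6.13 CPM in WT follicular cells (log2 fold change 5.28 ± 0.21 SE, edgeR adjusted p = 0.00106). Mpo, myeloperoxidase, stood at 36.1 and 38.8 CPM in D3TA and 0.383 and 0.0989 CPM in WT follicular cells (7.13 ± 0.34 SE, edgeR adjusted p = 0.00111). S100a8 and S100a9 were used by the rule, which capped them, and their calls are a description.

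The neutrophil list holds 17 genes, of which 15 lie outside the rule. These 15 summed to 912 and 974 CPM in D3TA and 55.8 and 49.996 CPM in WT follicular cells, and 8 of them passed as higher with edgeR and 10 with DESeq2. Among the genes of the list with at least 100 CPM in non-B cells (17 and 17 in D3TA, 8 and 10 in WT libraries), the level in follicular cells had a median of 2.19% and 2.41% of the non-B level in D3TA and 2.54% and 1.18% in WT libraries. This did not hold for granule genes that were rare in the non-B cells of WT replicate 1. Elane, Mpo and Prtn3 stood there at 147%, 140% and 34.2% of non-B levels of 0.361, 0.271 and 2.44 CPM. The follicular values rest on 7, 5 and 11 UMIs, so these ratios are uncertain. In the non-B cells S100a8 stood at 56517 and 44174 CPM in D3TA and 2119 and 2650 CPM in WT libraries. Of the whole list, 0 genes were at 0 in either D3TA library and in WT replicate 1, and 2 were at 0 in WT replicate 2.

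Markers of other cells did not all move the same way. The erythroid and platelet list summed to 217 and 169 CPM in D3TA and 394 and 1206 CPM in WT follicular cells, with 0 of 10 tested genes called by edgeR and 1, the alpha globin gene Hba-a2, called as lower by DESeq2 (adjusted p = 0.00987). In WT replicate 2, 1 cell held 54.2% of the UMIs of Hbb-bs, a beta globin gene. The T and NK list, whose Cd3 genes the rule set to 0, summed to 282 and 60.5 CPM in D3TA and 157 and 55.2 CPM in WT, the monocyte, macrophage and dendritic list to 212 and 213 CPM in D3TA and 100.4 and 65.2 CPM in WT, and the plasma cell list to 688 and 840 CPM in D3TA and 573 and 1130 CPM in WT. Of the UMIs of Jchain, a gene of the plasma cell list, a single cell held 27.3% and 50.4% in D3TA and 5.54% and 29.7% in WT libraries. The basophil and mast list summed to 2.41 and 8.06 CPM in D3TA and 5.52 and 2.02 CPM in WT. Of the 13 tested monocyte, macrophage and dendritic genes, edgeR called 0. DESeq2 called 2 as higher, Lyz2 (adjusted p = 0.000468) and Ly6c2 (adjusted p = 0.00207). In that list 4 genes had both D3TA libraries above both WT libraries and 1 had them below, against 16.3% and 21.7% of all genes tested. Neither tool called a gene of the T and NK, plasma cell or basophil and mast lists. In D3TA replicate 1, 8 of the 17 T and NK genes, 10 of the 18 monocyte, macrophage and dendritic genes, 5 of the 14 erythroid and platelet genes, 3 of the 13 plasma cell genes and 6 of the 7 basophil and mast genes were at 0. The part of RNA from these cells in the results below was not tested.

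**Figure D3:**
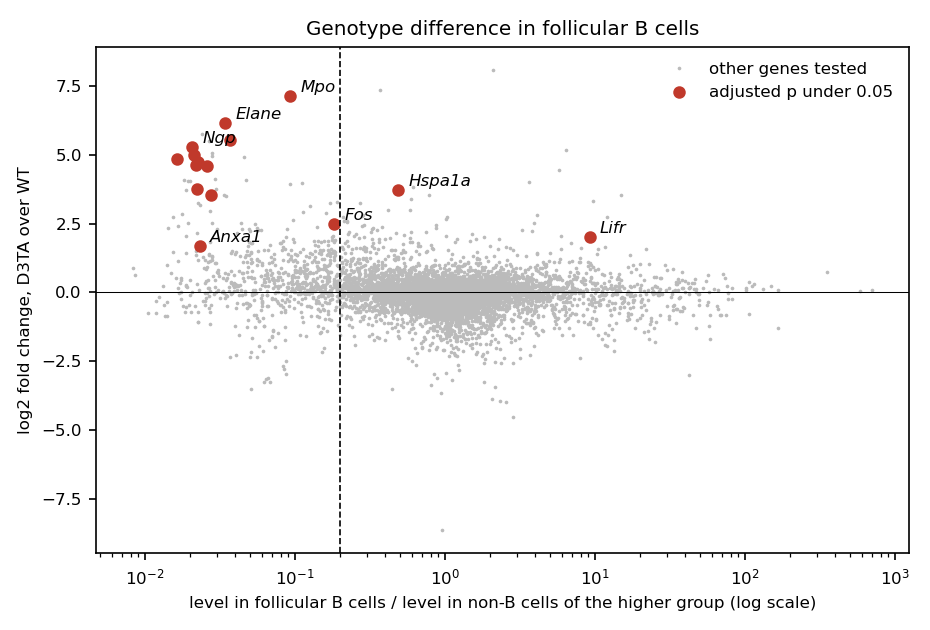
Log2 fold change (D3TA over WT) of each gene tested in follicular B cells against the ratio of its level in follicular cells to that in non-B cells, taken in the group where the gene is higher (log scale; dashed line at 0.2). Of the 15 genes past an adjusted p of 0.05 (red), 13 lie left of the line, and Lifr lies far to the right of it.

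Among the called genes, Lifr had the highest level in follicular cells relative to non-B cells. It encodes the receptor subunit that binds leukemia inhibitory factor and signals with gp130 (chromosome 15, 7090614 to 7197489, plus strand, GRCm38). It stood at 28.9 and 44.3 CPM in D3TA follicular cells (12 and 367 UMIs), against 9.80 and 10.8 CPM in WT follicular cells (128 and 109 UMIs). Both D3TA libraries lay above both WT libraries, and the log2 fold change was 2.01 ± 0.20 SE (edgeR adjusted p = 0.0284, DESeq2 adjusted p = 0.0152).

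Lifr was detected in 13.0% and 16.2% of D3TA and 2.82% and 4.59% of WT follicular cells, and in 1.95% and 1.56% of D3TA and 1.23% and 1.94% of WT non-B cells. By plain CPM it stood at 4.50 and 3.60 in D3TA and 10.4 and 6.07 in WT non-B cells, where the 2 D3TA libraries were the lower ones. Follicular cells stood above the non-B level in both D3TA libraries and WT replicate 2, at 28.96 and 45.5 CPM in D3TA and 10.5 CPM in WT replicate 2, and slightly below it in WT replicate 1 at 9.69 CPM. The other B cell gates had the same order as follicular cells. The marginal zone gate held 14.03 and 14.89 CPM in D3TA and 2.21 and 3.55 CPM in WT libraries, and the Sox5 gate 9.44 and 9.62 CPM in D3TA and 1.49 and 2.39 CPM in WT libraries. The genotype effect did not differ detectably between follicular and marginal zone gate cells (difference of log2 fold changes -0.26 ± 0.28 SE, edgeR adjusted p = 1).

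The call on Lifr rested on each of 3 libraries. Its adjusted p was 0.0561 without D3TA replicate 2 (log2 fold change 1.48), 0.0927 without WT replicate 1 (1.84) and 0.0588 without WT replicate 2 (1.98), while without D3TA replicate 1 it was 3.29e-06 (2.12). The call was also lost when genes of possible free RNA were left out before the fit (2.02, edgeR adjusted p = 0.0756).

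Hspa1a, a stress-induced HSP70 chaperone (chromosome 17, 34969190 to 34972156, minus strand, GRCm38), was the other called gene above that limit. It stood at 14.4 and 20.5 CPM in D3TA (6 and 170 UMIs) and 1.15 and 1.78 CPM in WT follicular cells (15 and 18 UMIs), with no overlap of the groups (log2 fold change 3.73 ± 0.35 SE, edgeR adjusted p = 0.0230). Without D3TA replicate 2 the adjusted p was 0.0512. Its near copy Hspa1b stood at 19.2 and 84.9 CPM in D3TA and 3.67 and 6.04 CPM in WT follicular cells (3.83 ± 0.48 SE, edgeR adjusted p = 0.0606, DESeq2 adjusted p = 3.60e-07). The promoters of both genes share 247 of 250 bases, and reads may be split between the near-identical copies, so their separate values are uncertain.

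In non-B cells Hspa1a was detected in 10.6% and 16.4% of D3TA and 2.14% and 5.95% of WT cells, against 7.41% and 9.85% of D3TA and 0.526% and 1.00% of WT follicular cells. Hspa1a was thus also detected in more D3TA than WT non-B cells, whose part in the follicular values was not tested. The other B cell gates had the same order by plain CPM. The marginal zone gate held 33.3 and 13.6 CPM in D3TA and 1.84 and 2.52 CPM in WT libraries. The Sox5 gate held 36.3 and 20.1 CPM in D3TA and 1.22 and 1.44 CPM in WT libraries. Among the heat shock genes, of 11 tested, 1 passed as higher with edgeR and 2 with DESeq2, and their median log2 fold change was 0.23. Of these 11, 5 had both D3TA libraries above both WT libraries and 0 had them below, against 16.3% and 21.7% of all genes tested.

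Fos, a subunit of the AP-1 transcription factor (chromosome 12, 85473890 to 85477273, plus strand, GRCm38), stood at 31.3 and 38.7 CPM in D3TA and 6.35 and 7.03 CPM in WT follicular cells. The groups did not overlap (log2 fold change 2.49 ± 0.17 SE, edgeR adjusted p = 0.00626), and the gene passed with each library left out in turn. Its level in D3TA follicular cells was 0.182 of that in D3TA non-B cells, of which 51.3% and 52.1% held a Fos UMI, against 7.07% and 13.2% of WT non-B cells. Among follicular cells the share was 18.5% and 20.03% in D3TA and 2.25% and 3.39% in WT.

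Fos was the 1 of 20 tested AP-1 and immediate early genes that passed with edgeR, a family switched on by many stimuli without new protein synthesis. In this list 13 genes had both D3TA libraries above both WT libraries and 1, Nr4a1, had them below, with a median log2 fold change of 0.62. Over all genes tested these shares were 16.3% and 21.7%. Jun, the partner of Fos, stood at 156 and 60.8 CPM in D3TA and 12.6 and 23.4 CPM in WT follicular cells (edgeR adjusted p = 0.328, DESeq2 adjusted p = 2.95e-05). Cd69, an early activation antigen that holds lymphocytes in tissue, stood at 139 and 99.5 CPM in D3TA and 41.3 and 48.3 CPM in WT (edgeR adjusted p = 0.153, DESeq2 adjusted p = 0.0152). Egr1, a zinc finger factor, stood at 24.0 and 42.8 CPM in D3TA and 11.9 and 11.1 CPM in WT (edgeR adjusted p = 0.0606). DESeq2 called 4 of the 20 as higher, Fos, Fosb, Jun and Cd69. Without D3TA replicate 1, 7 of the 20 passed with edgeR as higher and 0 as lower, where 5.46% and 7.3% of all 12965 genes passed in those directions.

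The promoters of these called genes, 250 bases up to the annotated start from RefSeq on GRCm38.p6, are shown because their genes were the stress and immediate early genes called. Capitals in the Hspa1a promoter (chr17:34972157-34972406, minus strand) mark GAANNTTC, the core of a heat shock element, and capitals in the Fos promoter (chr12:85473640-85473889, plus strand) mark TGACG, the core of a cyclic AMP response element.
Hspa1a promoter: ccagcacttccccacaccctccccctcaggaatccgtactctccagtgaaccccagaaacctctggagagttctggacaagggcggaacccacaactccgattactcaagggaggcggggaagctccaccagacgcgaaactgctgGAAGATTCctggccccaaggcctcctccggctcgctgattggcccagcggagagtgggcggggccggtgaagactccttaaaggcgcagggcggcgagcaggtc
Fos promoter: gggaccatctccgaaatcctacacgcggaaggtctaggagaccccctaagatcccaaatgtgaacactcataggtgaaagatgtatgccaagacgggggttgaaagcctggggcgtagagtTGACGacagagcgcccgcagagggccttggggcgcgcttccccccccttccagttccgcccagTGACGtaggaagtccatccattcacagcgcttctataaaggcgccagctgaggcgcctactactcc
On both strands, GAANNTTC had 1 match in the Hspa1a promoter and lay in 6.69% of 32851 promoters of this length, and TGACG had 2 matches in the Fos promoter and lay in 17.8%. A match describes these letters and is not a site of binding.

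NF-kB and activation genes gave no call with all 4 libraries, by edgeR or DESeq2. Of 21 tested, 0 passed, 10 had both D3TA libraries above both WT libraries and 2 had them below, with a median log2 fold change of 0.22. Over all genes tested, 16.3% lay above and 21.7% below in this way. Rel, the NF-kB subunit of activated B cells, stood at 308 and 362 CPM in D3TA and 290 and 277 CPM in WT follicular cells, so that both D3TA libraries were the higher ones. Nfkb1 stood at 341 and 451 CPM in D3TA and 348 and 372 CPM in WT, where the groups overlapped. Without D3TA replicate 1, the median log2 fold change of the 21 genes was 0.24, with Rel at 0.36 and Nfkb1 at 0.34.

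**Figure D4:**
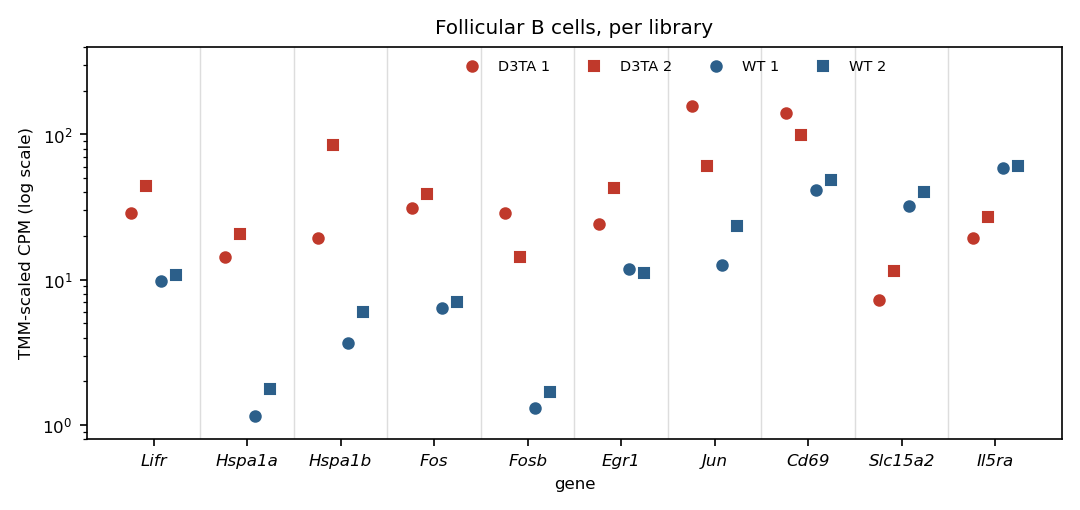
TMM-scaled CPM (log scale) of 10 genes in the follicular B cells of each library, with 1 point per library. The D3TA points lie above the WT points for Lifr through Cd69 and below them for Slc15a2 and Il5ra; of these genes Lifr, Hspa1a and Fos passed an edgeR adjusted p of 0.05.

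Transcription factors of the B lineage gave no call with all 4 libraries, by edgeR or DESeq2. Of 22 tested outside the rule, 0 passed, and the median log2 fold change was -0.01. Both D3TA libraries lay above both WT libraries for 4 genes and below them for 4, against 16.3% and 21.7% of all genes tested. Foxp1 stood at 3172 and 4508 CPM in D3TA and 3442 and 3850 CPM in WT. Bach2 stood at 4179 and 3855 CPM in D3TA and 2582 and 3284 CPM in WT, with the D3TA libraries higher but no call (edgeR adjusted p = 0.677). When D3TA replicate 1 was left out, the median log2 fold change of the 22 genes was 0.15, with Foxp1 at 0.31 and Bach2 at 0.40.

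The B cell receptor and its coreceptors gave 0 calls, by edgeR or DESeq2 with all 4 libraries, among 13 genes tested outside the rule. The groups did not overlap for 0 of these genes as higher and 5 as lower, against 16.3% and 21.7% of all genes tested. The phosphatase CD45, encoded by Ptprc, stood at 1820 and 2248 CPM in D3TA and 1890 and 2016 CPM in WT. The complement receptor gene Cr2 stood at 265 and 637 CPM in D3TA and 742 and 670 CPM in WT, where D3TA replicate 1 was the low library. Of 21 genes of B cell receptor signalling, 0 passed with either tool. Prkcb, the kinase between the receptor and NF-kB, stood at 1085 and 2007 CPM in D3TA and 1591 and 1769 CPM in WT, and Lyn, the first kinase of the pathway, at 1015 and 1411 CPM in D3TA and 1068 and 1117 CPM in WT. With D3TA replicate 1 left out, the median log2 fold change was -0.14 for the 13 receptor genes and 0.14 for the 21 signalling genes. In that fit of D3TA replicate 2 against both WT libraries, the log2 fold change was 0.38 for Lyn and 0.26 for Prkcb. D3TA replicate 1 lay below both WT libraries for both genes.

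Genes that mark B cell stages gave no edgeR call with all 4 libraries, with 0 of the 15 follicular, 14 marginal zone, 9 immature and transitional, 15 germinal center and 16 atypical and age-associated genes tested passing. DESeq2 called 1 germinal center gene as higher and 0 genes of the other stage lists. Both D3TA libraries lay above both WT libraries for 7 germinal center and 6 atypical genes, and below them for 2 of each. Those counts were 2 and 3 for follicular, 1 and 2 for marginal zone, and 4 and 1 for immature genes. Over all genes tested, 16.3% lay above and 21.7% below. The median log2 fold change was 0.30 for germinal center and 0.61 for atypical genes. Without D3TA replicate 1, the median was -0.03 for follicular, 0.07 for marginal zone and 0.17 for immature genes. It was 0.31 for germinal center and 0.36 for atypical genes. Fcmr, the receptor for IgM, stood at 378 and 416 CPM in D3TA and 532 and 582 CPM in WT, with both D3TA libraries lower and no call (edgeR adjusted p = 0.625). Its log2 fold change was -0.41 without D3TA replicate 1 (edgeR adjusted p = 0.0166). Cd55 stood at 428 and 769 CPM in D3TA and 679 and 720 CPM in WT. Plac8 stood at 630 and 271 CPM in D3TA and 329 and 316 CPM in WT.

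Of the stage genes, Vpreb3, a transcript of B cells leaving the bone marrow, stood at 279 and 113 CPM in D3TA and 203 and 178 CPM in WT. In D3TA replicate 1, a single cell held 45.7% of its UMIs. Without that library, the log2 fold change of Vpreb3 was -0.75, from D3TA replicate 2 against both WT libraries. Cd24a stood at 137 and 131 CPM in D3TA and 124 and 109 CPM in WT, with both D3TA libraries higher. Bcl6, the master factor of the germinal center, stood at 111 and 106 CPM in D3TA and 118 and 97.5 CPM in WT. Gna13, which confines germinal center B cells, stood at 137 and 145 CPM in D3TA and 110 and 119.7 CPM in WT (0.34 without D3TA replicate 1 as a log2 fold change, edgeR adjusted p = 0.0455). Zeb2, a factor of age-associated B cells, stood at 503 and 353 CPM in D3TA and 231 and 304 CPM in WT (edgeR adjusted p = 0.615), and Tnfrsf13b, the receptor TACI, at 120.2 and 165 CPM in D3TA and 175 and 178 CPM in WT.

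Survival, homing and sensing genes gave no call with all 4 libraries by edgeR or DESeq2, with 0 of 17 survival and BAFF receptor genes, 0 of 19 migration and adhesion genes, 0 of 16 Toll-like receptor genes, 0 of 28 interferon-induced genes and 0 of 13 TGF-beta and activin genes passing. With D3TA replicate 1 left out, the median log2 fold change was 0.03 for survival, 0.15 for migration and 0.20 for TGF-beta genes. It was -0.001 for Toll-like receptor and -0.35 for interferon-induced genes. Bcl2, the survival factor of naive B cells, stood at 370 and 519.8 CPM in D3TA and 521 and 586 CPM in WT, and Traf3, a brake on BAFF signalling, at 423 and 445 CPM in D3TA and 371 and 378 CPM in WT. The integrin gene Itga4 stood at 233 and 452 CPM in D3TA and 378 and 382 CPM in WT, with overlapping groups. Ly86 and Cd180, which form parts of one receptor complex on B cells, stood at 454 and 553 CPM and at 353 and 412 CPM in D3TA, and at 525 and 512 CPM and at 375 and 376 CPM in WT.

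The interferon-induced gene Ifi27l2a showed how far the D3TA libraries differed from each other, at 724 and 151 CPM in D3TA and 325 and 236 CPM in WT. Its log2 fold change was 0.56 with all libraries (edgeR adjusted p = 0.903) and -0.89 without D3TA replicate 1 (edgeR adjusted p = 0.00515). Ly6e stood at 1034 and 1048 CPM in D3TA and 1229 and 1203 CPM in WT. Tgfbr2 stood at 344 and 424 CPM in D3TA and 369 and 393 CPM in WT, and Tgfb1 at 111 and 166 CPM in D3TA and 176 and 167 CPM in WT.

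Antigen presentation and translation genes split the 2 D3TA libraries. The 10 MHC class II genes summed to 19628 and 14384 CPM in D3TA and 17566 and 18697 CPM in WT follicular cells, and the 14 MHC class I genes to 7454 and 3582 CPM in D3TA and 4335 and 4493 CPM in WT. In both lists D3TA replicate 1 was the highest library and D3TA replicate 2 the lowest, and 0 genes passed with edgeR or DESeq2. Cd74, the invariant chain, stood at 9705 and 6861 CPM in D3TA and 8889 and 9469 CPM in WT, and H2-Aa at 2789 and 2299 CPM in D3TA and 2830 and 3066 CPM in WT. B2m stood at 1621 and 983 CPM in D3TA and 1032 and 1106 CPM in WT, and H2-K1 at 1652 and 777 CPM in D3TA and 985 and 1030 CPM in WT. When D3TA replicate 1 was left out, the median log2 fold change was -0.32 for the 10 class II and -0.32 for the 14 class I genes. The log2 fold changes of single genes were then -0.41 for Cd74, -0.35 for H2-Aa and -0.37 for H2-K1.

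The 28 cytosolic ribosomal protein genes summed to 69617 and 50588 CPM in D3TA and 69711 and 67117 CPM in WT follicular cells. D3TA replicate 1 lay between the WT libraries and D3TA replicate 2 below all others. With all libraries 0 genes passed with edgeR or DESeq2 and the median log2 fold change was -0.25. Without D3TA replicate 1, 24 of the 28 passed as lower and 0 as higher, with a median of -0.47, where 7.3% of all genes passed as lower. That comparison sets 1 D3TA library against 2 WT libraries and assumes that it varies as they do. Rps24 stood at 5651 and 4521 CPM in D3TA and 6369 and 6344 CPM in WT, and Rpl13 at 4646 and 2832 CPM in D3TA and 4430 and 4590 CPM in WT. Their log2 fold changes without D3TA replicate 1 were -0.48 for Rps24 (edgeR adjusted p = 0.000183) and -0.66 for Rpl13 (edgeR adjusted p = 4.45e-05).

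The 20 respiratory chain genes summed to 4160 and 2677 CPM in D3TA and 3217 and 3084 CPM in WT, with 0 called by edgeR or DESeq2. Without D3TA replicate 1, their median log2 fold change was -0.28. Cox4i1 stood at 551 and 347 CPM in D3TA and 414 and 434 CPM in WT, and Atp5e at 488 and 344 CPM in D3TA and 445 and 411 CPM in WT. The glycolysis genes gave 0 calls among 14 with either tool. Gapdh stood at 503 and 156 CPM in D3TA and 197 and 207 CPM in WT, and Gpi1 at 106 and 119 CPM in D3TA and 112 and 121 CPM in WT. Without D3TA replicate 1, the log2 fold change of Gapdh was -0.36.

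The cell cycle genes are of interest because the edited protein is a G1 cyclin. None of the 22 tested genes of the cyclin D, CDK and RB pathway passed with edgeR or DESeq2 over all 4 libraries, with a median log2 fold change of 0.11. The groups did not overlap for 4 of them as higher and 2 as lower, against 16.3% and 21.7% of all genes tested. Ccnd2 stood at 151 and 35.8 CPM in D3TA and 30.2 and 36.2 CPM in WT (log2 fold change 1.00 ± 0.60 SE, edgeR adjusted p = 0.764). The difference rested on D3TA replicate 1, where 22 of 54 cells held the 63 UMIs, and the log2 fold change was 0.12 without that library. It passed without D3TA replicate 2 (2.19, edgeR adjusted p = 0.000247) and with no filter on low counts (0.98, edgeR adjusted p = 0.00398). Ccnd1 was near absent, with 0 and 19 UMIs in D3TA and 48 and 17 UMIs in WT follicular cells.

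The kinase partners of cyclin D3 gave no call over all 4 libraries. Cdk6 stood at 159 and 78.3 CPM in D3TA and 67.4 and 79.7 CPM in WT (0.51 ± 0.32 SE, edgeR adjusted p = 0.779), and Cdk4 at 52.9 and 21.0 CPM in D3TA and 29.1 and 30.4 CPM in WT (-0.19 ± 0.34 SE, edgeR adjusted p = 0.941). For both, D3TA replicate 1 was the highest library. D3TA replicate 2 lay between the WT libraries for Cdk6 and below both for Cdk4. Cdk6 passed as higher without D3TA replicate 2 (log2 fold change 1.11, edgeR adjusted p = 0.0145) and Cdk4 as lower without D3TA replicate 1 (-0.49, edgeR adjusted p = 0.0344). Ambra1, which directs D-type cyclins to degradation, stood at 269 and 352 CPM in D3TA and 274 and 296 CPM in WT.

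Proliferation genes gave no edgeR call over all 4 libraries, while DESeq2 called 3 as higher. Of 23 tested, 22 had both D3TA libraries above both WT libraries and 0 had them below, against 16.3% and 21.7% of all genes tested. Their median log2 fold change was 1.45, and 0.98 without D3TA replicate 1. Hmgb2 stood at 654 and 259 CPM in D3TA and 141 and 156 CPM in WT (edgeR adjusted p = 0.467, DESeq2 adjusted p = 0.00866), and Tubb5 at 245 and 166 CPM in D3TA and 170 and 158 CPM in WT. The list summed to 1933 and 827 CPM in D3TA and 516 and 543 CPM in WT follicular cells. The other genes that DESeq2 called were Cdk1 and Ccna2, a mitotic kinase and a cyclin that binds it (adjusted p = 0.00242 and 0.0262).

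In D3TA replicate 1 this sum rested on few cells. Cells with both Mki67 and Top2a numbered 2 of 54 and 12 of 1198 in D3TA and 16 of 2661 and 6 of 1503 in WT libraries, and in D3TA replicate 1 the 2 cells held 79.2% of the proliferation UMIs. In the other libraries such cells held 28.1% in D3TA replicate 2 and 12.4% and 20.1% in WT. Without such cells the sums were 463 and 614 CPM in D3TA and 455 and 439 CPM in WT, with both D3TA libraries still above both WT libraries, the gap smaller and the order within each group turned round. Mki67 and Top2a were also detected in 31.5% and 29.2% of the non-B cells of D3TA replicate 1 and 26.6% and 25.5% of those of D3TA replicate 2, against 6.86% and 6.45% in WT replicate 1 and 12.0% and 11.7% in WT replicate 2. The part of their RNA in the follicular values was not tested.

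**Figure D5:**
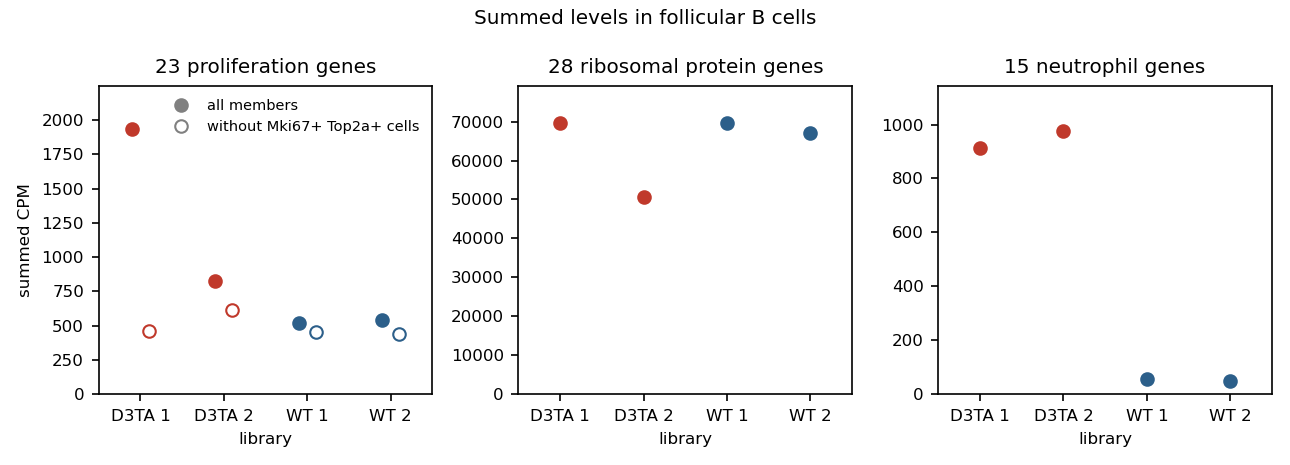
Summed plain CPM in follicular B cells, per library, of 23 proliferation genes (filled, all members; open, without cells that held both Mki67 and Top2a), 28 cytosolic ribosomal protein genes and 15 neutrophil genes that the rule did not use. Without its 2 such cells, D3TA replicate 1 lies at 463 CPM of proliferation genes, against 1933 CPM with them, the ribosomal sum is low in D3TA replicate 2 alone at 50588 CPM, and the neutrophil sum is 912 and 974 CPM in D3TA and 55.8 and 49.996 CPM in WT.

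Immunoglobulin transcripts showed no call by edgeR or DESeq2 over all 4 libraries among the 10 constant genes tested outside the rule. With D3TA replicate 1 left out, the median log2 fold change of these genes was -0.02. Igkc, the kappa light chain, stood at 5742 and 5574 CPM in D3TA and 6279 and 8349 CPM in WT, and Ighm, the IgM heavy chain, at 2869 and 3654 CPM in D3TA and 2600 and 4050 CPM in WT. The lambda share of light chain UMIs was 26.3% and 17.7% in D3TA and 24.4% and 24.999% in WT follicular cells (mean 21.98% ± 6.04 in D3TA and 24.7% ± 0.443 in WT, SD, n = 2 each; two-sided exact permutation p = 1). Cells with more lambda than kappa UMIs made up 7.41% and 5.18% in D3TA and 6.92% and 6.52% in WT libraries.

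The genotype effect was compared between follicular and marginal zone gate cells in 1 model with the library as a block, over 13337 genes. It differed for 5 genes, or 0.0375%. The effect was higher in follicular cells for Lyz2, Igha and Cd9 (0.0225%) and lower for Ighg2b and Gzma (0.015%), and 475 had an unadjusted p under 0.05. DESeq2 called 1. Lyz2, lysozyme of myeloid cells, had a log2 fold change of 1.82 in follicular and -0.08 in marginal zone gate cells. Cd9, a tetraspanin of marginal zone cells, stood by this model's scaling at 16.4 and 16.3 CPM in D3TA and 11.4 and 7.10 CPM in WT follicular cells, and at 23.4 and 32.1 CPM in D3TA and 57.3 and 56.5 CPM in WT marginal zone gate cells. In follicular cells alone, 0 of the 5 passed with edgeR over all 4 libraries, and Lyz2 passed with DESeq2 (adjusted p = 0.000468, against an edgeR adjusted p of 0.137).

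Further genes came into view when D3TA replicate 1 was left out, where edgeR called 708 higher and 946 lower genes, or 12.8% of 12965. With another library left out, it called 4.14% of genes without D3TA replicate 2 (2.54% higher, 1.6% lower), 0.423% without WT replicate 1 (0.35% higher, 0.0732% lower) and 0.328% without WT replicate 2 (0.312% higher, 0.016% lower). The following were chosen after their values were seen, as genes called there but not with all libraries that had no overlap of the groups in all 4 libraries, at least 20 CPM in the higher group and no possible free RNA. There were 206 such higher and 198 such lower genes, of which the 8 in each direction with the smallest p over all libraries are described. With all 4 libraries, 0 of those described passed with edgeR, and 4 passed with DESeq2, Thsd7a (adjusted p = 1.63e-08), Hspa1b (3.60e-07), Fosb (1.29e-05) and Cmss1 (0.00242).

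Among the higher ones, besides Egr1, Hspa1b and the AP-1 subunit Fosb (28.9 and 14.2 CPM in D3TA and 1.30 and 1.68 CPM in WT), was Rell1, a relative of the TNF receptor RELT, at 31.3 and 32.1 CPM in D3TA and 13.4 and 12.5 CPM in WT. Mid1, a ubiquitin ligase of microtubules, stood at 31.3 and 35.8 CPM in D3TA and 15.9 and 12.4 CPM in WT. Prkcz, an atypical protein kinase C, stood at 14.4 and 42.2 CPM in D3TA and 10.0 and 10.4 CPM in WT. In D3TA replicate 1, a single cell held 3 of its 6 UMIs. Without the cell with most Prkcz UMIs in each library, plain CPM were 7.35 and 42.7 in D3TA and 9.69 and 9.74 in WT. The groups then overlapped. For Rell1, a single cell of D3TA replicate 1 held 6 of the 13 UMIs. Trabd2b and Thsd7a also lay higher in D3TA, but in D3TA replicate 1 a single cell held all 11 UMIs of Trabd2b and 11 of the 22 UMIs of Thsd7a.

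Among the lower ones was Il5ra, the alpha chain of the interleukin 5 receptor and nearly absent from non-B cells, at 19.2 and 26.9 CPM in D3TA and 58.3 and 60.7 CPM in WT follicular cells. Slc15a2, a transporter of small peptides, stood at 7.21 and 11.5 CPM in D3TA and 32.2 and 40.2 CPM in WT. Tnfaip8l2, a negative regulator of immune receptor signalling, stood at 26.5 and 29.6 CPM in D3TA and 53.6 and 50.1 CPM in WT. The other lower genes were Bmyc, a relative of Myc, Sfn, Cmss1, Rbm4b and Nxpe4, with log2 fold changes between -0.83 and -1.36 over all 4 libraries.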

How the data were processed

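Spleen cells of 4 mice were sequenced with droplet barcoding and UMIs. The authors deposited filtered UMI counts per gene and barcode from Cell Ranger 7.0.1, per the file headers, on mm10, per the submitters' processing notes; the annotation release is not given in the sources used here. Follicular cells were chosen by the stated rule, and the members and gene lists were chosen with earlier results of these data known. Counts were summed per library, since cells are not replicates. They were tested with edgeR 4.0.16 (filterByExpr, TMM, quasi-likelihood, Benjamini-Hochberg) in R 4.3.3, with DESeq2 1.42.0 as an alternative. CPM are UMIs scaled to a common total per library. Both tests were run on counts simulated with the same spread between libraries for every gene. The genotype test found 2.02% of genes changed 2-fold and 43.9% of those changed 4-fold, and 2.17% of its calls were false. The test of the difference from the marginal zone gate found 1% and 5.05%, with 0% false among few calls. Both missed more changed genes than they called. Genes with most UMIs in a single cell were not simulated, so the rate of false calls for them is not known.

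Named genes were called genes without overlap of the groups, at least 20 CPM in the higher group and not of possible free RNA (under 0.2 of the non-B level). To these came list members that were called, up to 4, or else the 2 most abundant, and the D-type cyclins with Cdk4 and Cdk6. Shares carry exact (Clopper-Pearson) 95% intervals, which cover counting error only. Doublets were kept. Scrublet (scanpy 1.11.5) marked 1 and 6 follicular cells in D3TA and 26 and 6 in WT libraries, and its limit for WT replicate 1 was set to the mean of the other libraries after the data were seen. Replicate numbers are used here only to name the libraries, since the labels give no pairing of them. Nothing in the labels states separate preparation, so p-values measure the spread between these libraries. Alternatives changed the normalization, test, filters, depth, doublets and libraries. Some genes that the naming rule selects are not reported here.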

Additional observations from a re-analysis of the deposited data

Results flagged for a closer look

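For 5 genes the genotype effect differed between follicular and marginal zone gate cells in edgeR's test of the difference itself, with the effect in follicular cells minus that in marginal zone gate cells given on the log2 scale. Lyz2, lysozyme of myeloid cells, differed by 1.87 ± 0.10 (SE, edgeR adjusted p = 1.25e-06). It stood at 105 and 99.7 CPM in D3TA and 36.5 and 21.1 CPM in WT follicular cells, and at 122 and 128 CPM in D3TA and 168 and 100.3 CPM in WT marginal zone gate cells. In D3TA replicate 2, 1 follicular cell held 24.9% of the Lyz2 UMIs. Igha, the IgA heavy chain, differed by 3.34, and in D3TA replicate 2 a single follicular cell held 76.5% of its UMIs. Ighg2b, an IgG heavy chain, differed by -1.34, at 11.7 and 75.7 CPM in D3TA and 67.0 and 57.6 CPM in WT follicular cells. Gzma, a granzyme of cytotoxic cells, differed by -4.09, with 0 and 7 UMIs in D3TA and 197 and 31 in WT follicular cells. Cd9 differed by 1.65, and in D3TA replicate 2 a single follicular cell held 34.1% of its UMIs. In the group where each was higher in follicular cells, Lyz2, Gzma and Cd9 stood at 0.0272, 0.0506 and 0.0684 of the non-B level, below the limit of 0.2 for possible free RNA, whose part in these differences was not tested.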

How the results depend on the processing

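The count of genes called between D3TA and WT follicular cells depended on the processing. Against 15 genes, DESeq2 called 37 (35 higher, 2 lower), no filter on low counts gave 369 (207 higher, 162 lower), thinning to 1000 UMIs per cell 99 (40 higher, 59 lower) and cells of 1000 to 5000 UMIs 59 (23 higher, 36 lower). Without genes of possible free RNA, 1 gene passed, as higher. The replicate block gave 89 calls (71 higher, 18 lower). Deviations of same-numbered libraries from their group means had r = -0.052 over 12102 genes. With 2 libraries per group the opposite pairing gives 0.052 by construction. This value cannot decide whether the numbers pair the libraries, and the labels give no pairing. Leaving out 1 library gave 41 to 1654 calls, 39 to 708 higher and 2 to 946 lower, with 1654 without D3TA replicate 1, 527 without D3TA replicate 2, 52 without WT replicate 1 and 41 without WT replicate 2; a group left with 1 library is assumed to vary like the other. The difference between follicular and marginal zone gate cells gave 72 genes with no filter, 8 with the stricter cell filter, 1 with DESeq2 and 3 to 39 with 1 library left out. The difference in the share among B cells was -22.1 to 5.12 percentage points, and in the lambda share -6.97 to 1.57 points, with 1 library left out. The log2 fold changes of D-type cyclins and their kinases changed sign between settings, and some alternatives gave calls: Ccnd2 with no filter (0.98) and without D3TA replicate 2 (2.19), Cdk6 without D3TA replicate 2 (1.11) and Cdk4 without D3TA replicate 1 (-0.49). Ccnd2 was at -0.22 in thinned cells and -0.17 in cells of 1000 to 5000 UMIs, where Ccnd3 was at 0.018 and Cdk6 at -0.12. Cdk4 was at 0.15 with DESeq2 and 0.025 under the replicate block. With 1 library left out, Ccnd1 ranged from -7.43 to 0.20, Ccnd3 from -0.31 to 0.0088 and Cdk4 from -0.49 to 0.83. The causes were not tested. The 54 cells of D3TA replicate 1 limit what its values can show.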
